A study of Platichthys stellatus with 16 samples.

Results

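Liver was compared with skeletal muscle in the starry flounder (Platichthys stellatus), a flatfish, by RNA sequencing of both sexes. The comparison takes every liver library and every muscle library of the series, 8 of its 16 libraries: 2 female livers and 2 male livers, against 2 female muscles and 2 male muscles. Per the labels the fish were 3 years old, no treatment is named, and the other 8 libraries are of brain and gonad. The design text of the series names pituitary where the sample labels name muscle, and the sample labels were followed. The design text speaks of 3 females and 3 males and the labels do not say which libraries came from the same fish, so the p-values below measure the spread between these libraries, which may be partly technical.

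Reads had been assembled without a genome, so the unit measured is an assembled feature: a contig or group of contigs, named here by the gene symbol of its deposited protein match. The features have no genome coordinates here. A symbol was found for 11450 of 16270 features (70.4%), which share 7970 distinct symbols, so 1 gene can be represented by several fragments or copies. Levels are given as FPKM (fragments per kilobase of feature, scaled to the library's fragments), always in the order female 1, female 2, male 1 and male 2 of a tissue. Differences are log2 values of liver minus muscle with their standard error, from edgeR's quasi-likelihood test on the expected counts with sex as a covariate. A feature is called higher where the p-value adjusted by Benjamini and Hochberg's method over all 16245 features tested is under 0.05.

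The liver makes most plasma proteins, including those of clotting, complement and iron transport, exports lipid, and carries out detoxification, bile acid synthesis and much of amino acid breakdown. Skeletal muscle of fish is built of sarcomeres, the repeated units of actin, myosin and titin, and is supplied with ATP by glycolysis, by adenylate and creatine phosphate shuttles and by mitochondria. Many of its enzymes are isozymes: separate genes code for the muscle and the liver form of an enzyme of the same reaction, as for glycogen phosphorylase.

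The listed features held between 6585127 and 9661907 counts per liver library, against between 5134221 and 8376943 per muscle library. Marker genes followed the tissue labels in their sums. The 13 features matched to hepatocyte markers summed to 48638, 82268, 83696 and 90383 FPKM in livers, against 45.2, 44.6, 27.4 and 55.8 FPKM in muscles. The 26 features of skeletal muscle markers summed to 1023, 891, 1215 and 1136 FPKM in livers, against 299981, 324358, 107077 and 54557 FPKM in muscles. By the edgeR test, which called 13.5% of all features higher in liver and 12.1% higher in muscle, 10 of the 13 hepatocyte features were higher in liver and 0 in muscle (0 as well by DESeq2 and at an unadjusted p under 0.05). Of the 26 muscle features 14 were higher in muscle, 9 did not pass and 3 were higher in liver, namely ATP2A2 (a log2 difference of 1.79), RYR1 (1.74) and Myl3 (1.40). Symbols matched 10 of 63 hepatocyte markers and 18 of 84 muscle markers, and albumin and the troponins were not among those matched. 2 libraries stood apart from the rest of their tissue. Female liver 1 correlated with the other livers at Pearson's r between 0.735 and 0.843 across features, where the other livers reached 0.900 to 0.931 among themselves. It gave 7.3% of its counts to mitochondrially encoded features, where the other livers gave 1.09% to 1.3%. Male muscle 2 gave 6.96% of its counts to its 10 largest features, where the other muscles gave 14.1% to 34.2%, and its TMM scaling factor was 1.389 in a range that otherwise ran between 0.864 and 1.134.

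The tissues differed in 4153 of 16245 features (25.6%). Of these, 2189 (13.5% of those tested) were higher in liver and 1964 (12.1%) were higher in muscle. Every count of list features below is to be read beside these shares. The FPKM of the 2 tissues did not overlap in 3133 features (19.3%), with liver above muscle in 1453 (8.94%) and muscle above liver in 1680 (10.3%), and 2623 of the called features (63.2%) were among them. At least 16-fold differences were called in 225 features higher in liver and 141 higher in muscle, and at least 1024-fold differences in 18 and 4 features. The median difference of all features was 0.03. Without female liver 1, 4837 features were called, and leaving out each library in turn gave between 2997 and 4837. In bulk tissue, fewer cells of a type and less RNA per cell cannot be told apart, and that holds for every difference below.

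Secreted plasma proteins were among the features with the largest excess in liver. Transferrin (tf), the iron carrier of plasma, had 9461, 20768, 13234 and 15495 FPKM in livers, against 4.46, 4.63, 1.93 and 2.1 FPKM in muscles. Complement C3 (c3), on which the complement pathways converge, had 7409, 20704, 23719 and 21442 FPKM in livers, against 9.22, 5, 1.85 and 2.18 FPKM in muscles. Hemopexin (hpx), which binds free heme, had 9602, 6628, 9979 and 7532 FPKM in livers, against 1.88, 3.63, 0.72 and 3.1 FPKM in muscles. Every liver was far above every muscle for these 3 genes, and the fitted differences were 12.26 ± 1.23 for tf, 12.32 ± 1.24 for c3 and 11.96 ± 0.87 for hpx (adjusted p = 5.9e-05, 5.9e-05 and 2.3e-05). The largest fitted difference on counts of all named features, 12.52 ± 1.13, belonged to VMO1, a secreted protein named for the outer layer of the vitelline membrane of eggs. VMO1 had 21126, 14990, 38596 and 34910 FPKM in livers, against 2.14, 28.1, 25.5 and 1.83 FPKM in muscles, so its high level was shared by livers of both sexes. Without female muscle 2 the VMO1 difference was 13.38. In mean FPKM it was 10.89 log2 units, below the 12.13 of tf. Its effective length, counts divided by FPKM, was 145 to 200 bases in livers, against 23 to 194 bases in muscles.

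Clotting and clot-dissolving proteins showed the same direction. The fibrinogen beta chain (FGB) had 9500, 14924, 14917 and 19923 FPKM in livers, against 4.62, 5.34, 4.39 and 11 FPKM in muscles, a difference of 11.56 ± 1.05 (adjusted p = 3.0e-05). The fibrinogen alpha chain (FGA) had 682, 3423, 3665 and 4916 FPKM in livers, against 1.04, 0.87, 1.76 and 1.53 FPKM in muscles, and plasminogen (PLG), the precursor of the fibrin-cutting protease, had 708, 4685, 6566 and 7028 FPKM in livers, against 0.32, 0.85, 1.74 and 2.05 FPKM in muscles. Female liver 1 was the lowest liver for all 3 genes, and it was still far above the highest muscle. Of 9 features in the coagulation list, 7 were higher in liver and 1 in muscle, with a median difference of 6.88. They include VKORC1 (6.88) and GGCX (3.94), the pair of enzymes that recycle vitamin K and use it to modify clotting factors, and coagulation factor IX (F9, 6.85). The exception was F3, or tissue factor, the cell-surface protein that starts clotting: it had 2.07, 0.67, 0.51 and 0.62 FPKM in livers, against 3.09, 3.77, 5.26 and 18.7 FPKM in muscles (-2.68 ± 0.66, adjusted p = 0.012). The F3 call was lost without male liver 1 (adjusted p = 0.053) and without male liver 2 (0.051), and the difference was -3.56 without female liver 1.

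**Figure D1:**
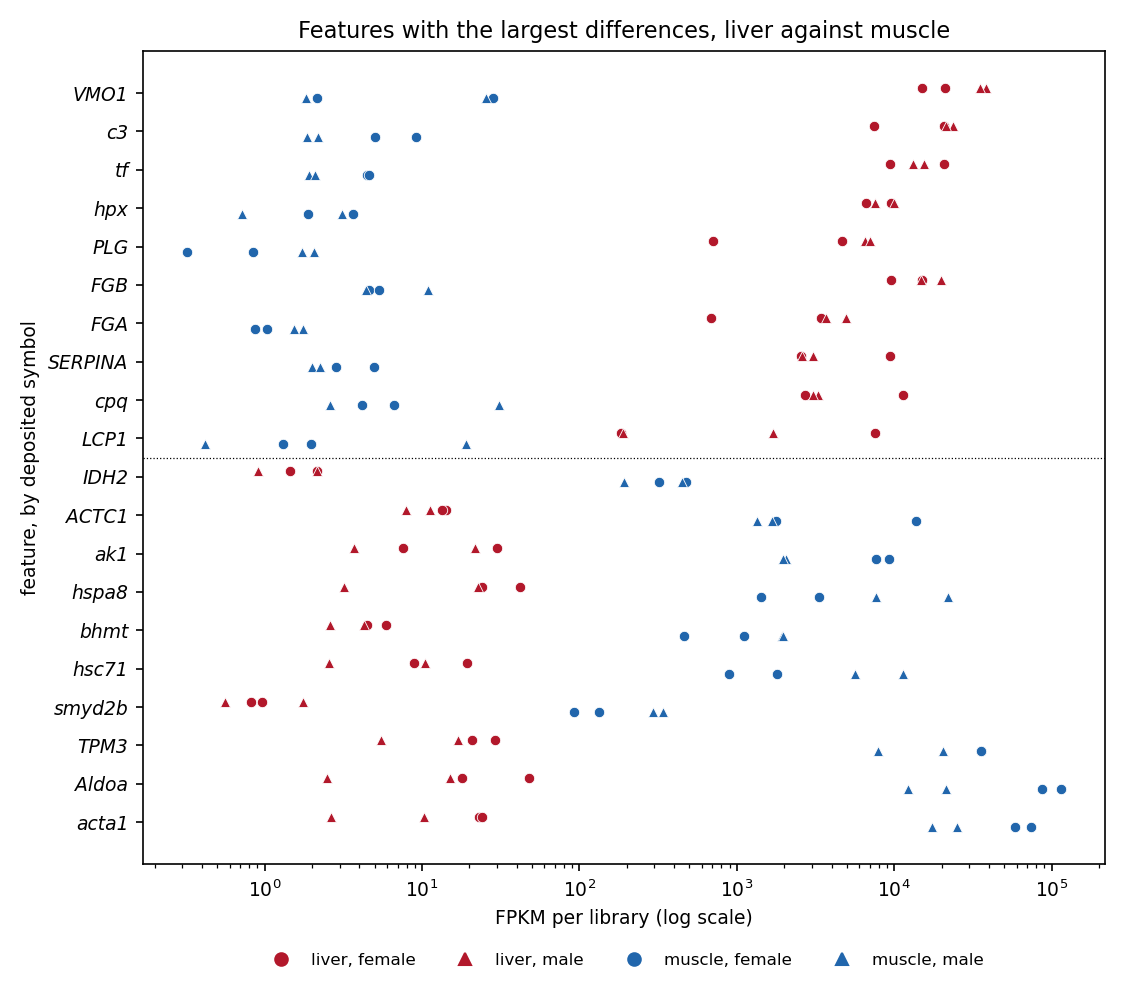
FPKM per library (horizontal, log scale) of the 10 symbol-bearing features with the largest difference in each direction, liver libraries above muscle libraries within each row. For tf the 4 livers lie between 9461 and 20768 FPKM and the 4 muscles between 1.93 and 4.63 FPKM. Rows were drawn only from called features whose tissues do not overlap. Where features share a symbol, the one with the highest mean count stands for it.

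Complement split into plasma factors and a regulator. Of 9 complement features 5 were higher in liver and 2 in muscle, with a median of 3.03. C4A, which is cleaved early in the classical and lectin pathways, had 396, 412, 911 and 1149 FPKM in livers, against 14.4, 33.7, 12 and 312 FPKM in muscles (3.62 ± 0.67, adjusted p = 0.0022), with male muscle 2 far above the other muscles. Without that library the difference was 4.32. The 2 features of clusterin (CLU), a secreted chaperone that also binds the terminal complement complex, were higher in muscle. The one with more counts had 3.06, 4.1, 2.95 and 6.4 FPKM in livers, against 42.1, 42.4, 152 and 2516 FPKM in muscles (-5.08 ± 0.97, adjusted p = 0.0027). Male muscle 2 again held the highest value, and the difference without it was -3.92; without each other library it lay between -5.81 and -4.30. Among carriers and protease inhibitors, PZP, a large inhibitor of the alpha-2-macroglobulin family, had 148, 736, 598 and 742 FPKM in livers, against 6.16, 3.36, 3.11 and 25.3 FPKM in muscles (6.17 ± 0.74; 6.81 without male muscle 2). A feature with the symbol SERPINA, matched to a hibernation-specific plasma serpin of other vertebrates, had 9405, 2571, 3043 and 2599 FPKM in livers, against 2.85, 4.96, 1.99 and 2.26 FPKM in muscles (10.72 ± 0.90).

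Several abundant liver features carry no symbol and were picked after their values were seen. The deposited matches name one of them protein AMBP, the precursor of alpha-1-microglobulin, with 4834, 10608, 10860 and 17274 FPKM in livers, against 3.34, 2.35, 2.11 and 0.93 FPKM in muscles (12.19 ± 0.94). Another is nearest to a 14 kDa apolipoprotein of the European flounder, with 104329, 67378, 60956 and 72008 FPKM in livers, against 19.2, 81.8, 12.7 and 25.2 FPKM in muscles (11.33 ± 1.15). A c-type lysozyme match, an enzyme that cuts bacterial cell walls, had 21678, 36450, 23523 and 37959 FPKM in livers, against 66.1, 16.8, 206 and 834 FPKM in muscles (8.0 ± 0.75). Features without a symbol were considered only where they were called and the tissues did not overlap in FPKM.

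The machinery that folds and ships secreted proteins was higher in liver as well, by smaller factors. Of 106 features of the secretory pathway 54 (50.9%) were higher in liver and 0 in muscle, beside 13.5% and 12.1% of all features, with a median difference of 1.20. The count of 0 in muscle became 1 with DESeq2 or with all 16 libraries in the fit, 1 feature had an unadjusted p under 0.05 in that direction, and leaving out each library gave between 40 and 61 features higher in liver. PDIA4, a disulfide isomerase of the endoplasmic reticulum, had 212, 205, 211 and 254 FPKM in livers, against 3.82, 4.52, 6.84 and 16.9 FPKM in muscles (5.03 ± 0.48, adjusted p = 3.8e-05). HSP90B1, the endoplasmic HSP90, had 248, 188, 407 and 346 FPKM in livers, against 9.16, 4.49, 41.6 and 75 FPKM in muscles (3.92 ± 0.55). P4HB, another disulfide isomerase, had 339, 381, 541 and 339 FPKM in livers, against 20.2, 19.6, 49.3 and 83.9 FPKM in muscles (3.52 ± 0.51). In all 3 the lowest liver lay above the highest muscle, and male muscle 2 was the highest muscle. The list reached from translocation (SEC61B 2.54, and SSR1 2.44 in 1 of its 2 features) and glycosylation (STT3A 2.85, RPN1 2.58) to coat proteins of transport vesicles (SEC24D 3.23, and COPB2 2.21 in 1 of its 3 features) and the cargo receptor pair MCFD2 (3.42) and LMAN1 (2.87 and 2.30).

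**Figure D2:**
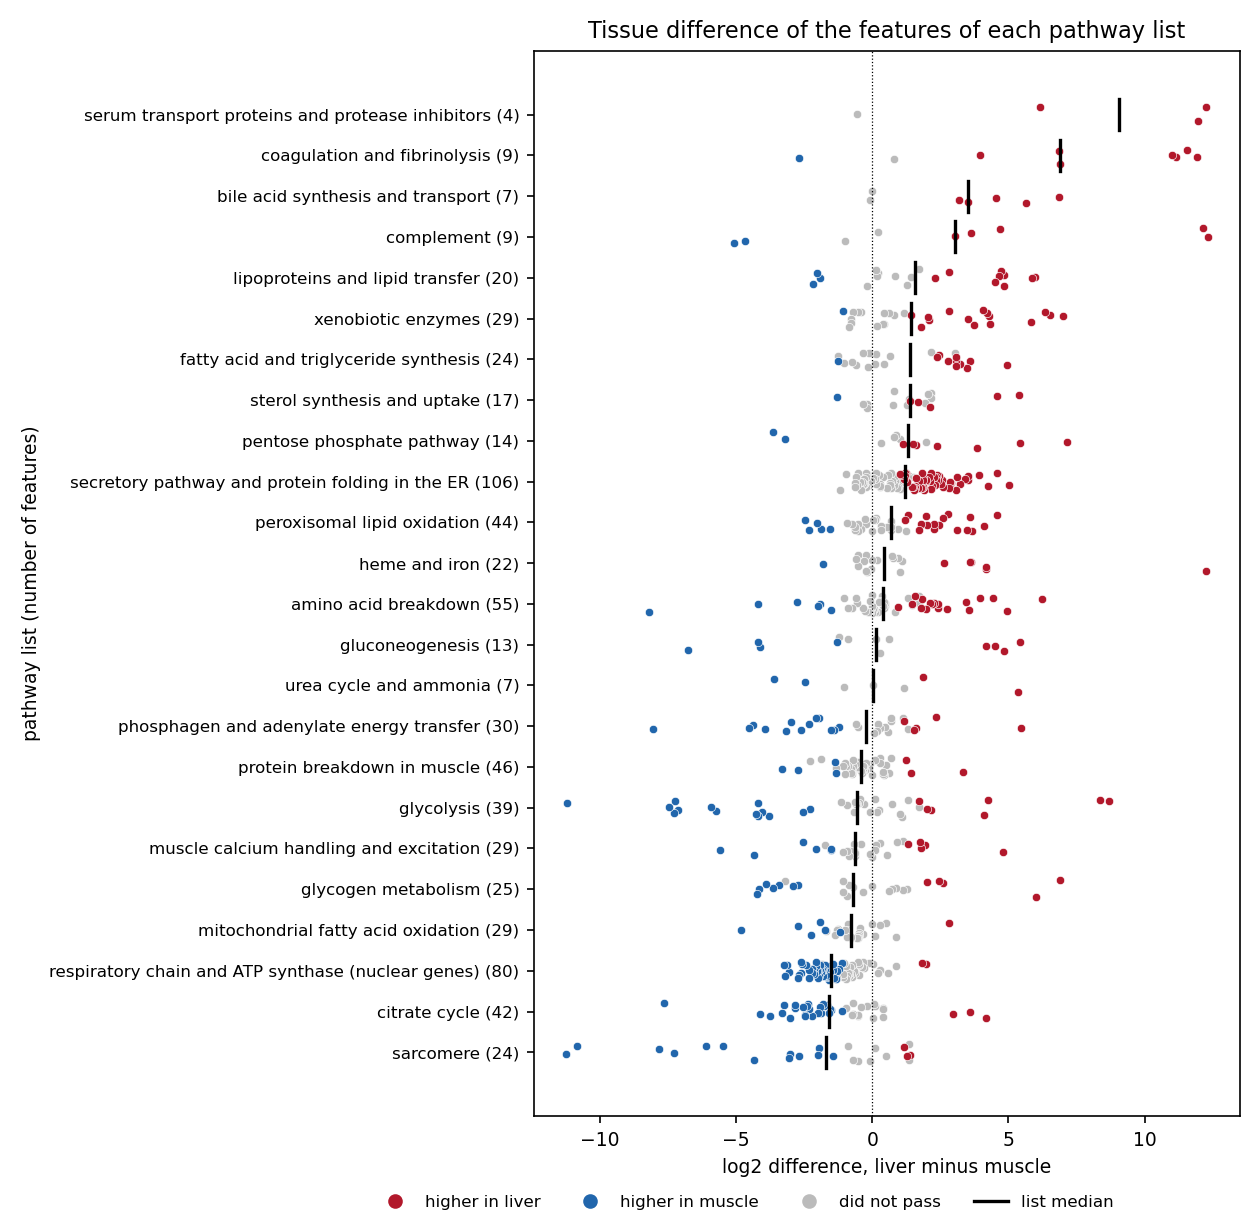
Log2 difference, liver minus muscle (horizontal), of every feature of 24 pathway lists, coloured by the edgeR call, with the list median as a bar. Medians run between 9.06 for serum carriers and protease inhibitors and -1.69 for the sarcomere, and several lists near 0 hold features far out in both directions.

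In sugar metabolism single enzymes differed widely, in both directions. Of 39 glycolysis features 7 (17.9%) were higher in liver and 14 (35.9%) in muscle, with a median of -0.56. Among all features the shares were 13.5% and 12.1%, so the liver share of the list was near that of all features. The count in muscle was 9 without female liver 2. Aldolase A (Aldoa), the muscle form of the enzyme that splits fructose 1,6-bisphosphate, had 47.6, 17.9, 2.5 and 15 FPKM in livers, against 86456, 114885, 21453 and 12335 FPKM in muscles (-11.23 ± 1.14, adjusted p = 5.9e-05). The lowest muscle was far above the highest liver.

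Lower glycolysis held further muscle excesses. Pyruvate kinase (Pkm) had 6.63, 9.19, 3.46 and 12.1 FPKM in livers, against 10145, 11540, 2610 and 1096 FPKM in muscles (-7.46 ± 1.05 on counts). Its mean FPKM differed by -9.66 log2 units, as its effective length, counts divided by FPKM, was 1105 to 1900 bases in livers, against 409 to 419 bases in muscles. A second pkm feature did not pass (0.26), with a mean of 26.2 FPKM in livers, against 26.3 FPKM in muscles. Beta-enolase (ENO3), the muscle form of enolase, had 42.3, 54, 41.4 and 32.5 FPKM in livers, against 19827, 24499, 2535 and 801 FPKM in muscles (-7.29 ± 1.12). A feature labelled gamma-enolase (ENO2), the form named for neurons in mammals, ran in parallel at -7.13 ± 1.05. It belongs to the same assembled cluster as a second ENO3 feature (-7.24 ± 1.08), so reads may be split between copies and its symbol is uncertain. Of 7 enolase features, 3 were higher in muscle and 1 in liver: an alpha-enolase (ENO1) with 18.9, 24.6, 17.2 and 28.7 FPKM in livers, against 3.06, 2.63, 3.76 and 15.4 FPKM in muscles (2.15 ± 0.38). The remaining 3 alpha-enolase features had differences between -0.59 and -0.47 and did not pass. Female muscles were above male muscles in Aldoa, Pkm and ENO3, and the livers of both sexes lay far below either. Leaving out single libraries moved the Pkm difference between -8.22 (male muscle 2) and -6.85 (female liver 1), and that of ENO3 between -8.12 (male muscle 2) and -6.66 (female liver 1).

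Lactate dehydrogenase A, which turns pyruvate into lactate, and glyceraldehyde-3-phosphate dehydrogenase fall outside the naming rule and were chosen after their values were seen. The longer ldha feature had 21.7, 11.1, 72.6 and 93.4 FPKM in livers, against 4095, 7981, 606 and 664 FPKM in muscles (-5.75 ± 1.47, adjusted p = 0.014). Female muscles were the highest and female livers the lowest, and the difference was -8.80 in females and -2.77 in males (interaction unadjusted p = 4.1e-04, adjusted p = 0.2). Of 6 GAPDH features, 4 were higher in muscle, with differences between -4.29 and -4.04. They are 219 to 507 bases long, and FPKM of such short features rest on short effective lengths. Phosphoglycerate mutase had 2 of its 6 features higher in liver and 2 in muscle, but the muscle pair was pgam5, a mitochondrial phosphatase of the same fold and not a glycolytic enzyme. The liver feature of PGAM1 with more counts had 12.8, 31.1, 26.3 and 25.5 FPKM in livers, against 1.55, 1.02, 0.49 and 2.45 FPKM in muscles (4.12 ± 0.47). The pgam5 pair differed by -1.75 ± 0.35 and by -1.34 ± 0.41 (adjusted p = 0.031), and the call of the second was lost on leaving out 5 of the 8 libraries.

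Glycogen phosphorylase, which releases glucose 1-phosphate from glycogen, followed the names of its isozymes in part. The liver form (PYGL) had 30, 131, 141 and 199 FPKM in livers, against 0.44, 0.6, 0.32 and 4.13 FPKM in muscles (6.91 ± 0.76, adjusted p = 8.9e-05, and 7.77 without male muscle 2). The brain form (PYGB) was also a liver feature, with 181, 223, 230 and 329 FPKM in livers, against 0.68, 5.05, 1.3 and 8.28 FPKM in muscles (6.01 ± 0.62). The muscle form (PYGM) had 13.1, 4.68, 3.15 and 5.15 FPKM in livers, against 81.9, 52.6, 83.5 and 82.1 FPKM in muscles (-3.64 ± 0.49), and its second feature differed by -3.43 ± 0.42. All 4 phosphorylase features separated the tissues. The alpha subunits of phosphorylase kinase, which activates phosphorylase, were all higher in muscle, whichever isoform they are named for. PHKA1, the muscle form in mammals, had 2.36, 13.4, 9.14 and 18 FPKM in livers, against 185, 267, 86.2 and 82.5 FPKM in muscles (-4.16 ± 0.78), and PHKA2, the liver form in mammals, had 0.88, 7.56, 7.96 and 17.9 FPKM in livers, against 90.4, 208, 62.9 and 72.9 FPKM in muscles (-3.90 ± 0.78). Without female liver 1, the lowest liver in both, these were -3.48 and -3.21. The gamma subunits went the other way, with PHKG2 at 2.44 and PHKG1 at 2.02. Over the 25 glycogen features, 5 (20%) were higher in liver and 7 (28%) in muscle, beside 13.5% and 12.1% of all features, with a median of -0.72. Phosphoglucomutase was divided too: PGM2 was higher in liver (2.60 ± 0.41), and 2 PGM1 features were higher in muscle (-2.72 and -2.91).

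Of 13 features of glucose synthesis 4 (30.8%) were higher in liver and 4 (30.8%) in muscle, with a median of 0.12. Among all features the shares were 13.5% and 12.1%. Of the liver features 3 carry 1 symbol, that of cytoplasmic malate dehydrogenase (mdh1), which also has 1 of the muscle features. Whether the features of that symbol are 1 gene or several cannot be told here. Pyruvate carboxylase (Pc), which feeds pyruvate into the pathway, had 15.2, 48.5, 70.1 and 131 FPKM in livers, against 3.06, 1.25, 1.47 and 4.99 FPKM in muscles (4.49 ± 0.59, adjusted p = 2.6e-04). The glucose-6-phosphate translocase (SLC37A4), which carries the last intermediate into the endoplasmic reticulum, had 1.15, 1.36, 0.93 and 0.43 FPKM in livers, against 40.1, 33, 6.43 and 8.52 FPKM in muscles (-4.14 ± 0.50). Cytoplasmic aspartate aminotransferase (GOT1), an enzyme of the malate-aspartate shuttle, had 3.49, 7.08, 4.84 and 5.38 FPKM in livers, against 138, 148, 97.5 and 97.8 FPKM in muscles (-4.20 ± 0.45). The tissues did not overlap for Pc, SLC37A4 or GOT1. The fructose-1,6-bisphosphatase features, FBP1 (0.62 and 0.28) and FBP2 (0.12 and -1.23), did not pass, and phosphoenolpyruvate carboxykinase was not matched by symbol.

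The pentose phosphate pathway, a source of NADPH and ribose, leaned to liver: 7 of 14 features (50%) were higher in liver and 2 (14.3%) in muscle, with a median of 1.31. Among all features the shares were 13.5% and 12.1%, so the muscle share was near that of all features. H6PD, the hexose-6-phosphate dehydrogenase of the endoplasmic reticulum, had 69.2, 227, 193 and 303 FPKM in livers, against 1.51, 1.12, 1.3 and 1.17 FPKM in muscles (7.17 ± 0.59, adjusted p = 2.5e-05). RPE, an epimerase of the same pathway, had 13.5, 26.2, 22.6 and 32.4 FPKM in livers, against 3.29, 2.85, 3.59 and 10.2 FPKM in muscles (2.39 ± 0.32). For both genes the tissues did not overlap. The muscle pair was PRPS2, which turns ribose 5-phosphate into the precursor of nucleotides: its main feature had 8.48, 8.72, 5.07 and 7.29 FPKM in livers, against 72.5, 50.9, 60.3 and 60.8 FPKM in muscles (-3.20 ± 0.41). A further PRPS2 feature was higher in liver, at 1.13.

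The lists of mitochondrial energy metabolism leaned to muscle. Of 42 citrate cycle features 3 (7.14%) were higher in liver, 25 (59.5%) were higher in muscle and 14 did not pass, with a median of -1.61, beside 0.03 for all features. Leaving out each library gave between 22 and 26 features higher in muscle. Mitochondrial isocitrate dehydrogenase (IDH2) had 2.16, 1.45, 0.91 and 2.15 FPKM in livers, against 476, 323, 446 and 193 FPKM in muscles (-7.66 ± 0.74, adjusted p = 4.4e-05). The cytoplasmic form (IDH1), a source of NADPH, had 18.5, 71.7, 78.8 and 127 FPKM in livers, against 2.28, 1.59, 2.36 and 11.9 FPKM in muscles (4.16 ± 0.49). The tissues did not overlap in either, and 3 features of the NAD-dependent mitochondrial enzyme were also higher in muscle, IDH3B at -1.58 ± 0.32 and IDH3A at -1.53 ± 0.33 and -2.01 ± 0.45. Idh3g, its gamma subunit, did not pass (0.08 ± 0.35).

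Succinyl-CoA ligase was divided by its nucleotide. SUCLG2, the subunit of the GTP-forming enzyme, had 25, 53, 63.9 and 65.3 FPKM in livers, against 4.7, 1.91, 9.4 and 18.2 FPKM in muscles (2.98 ± 0.41, adjusted p = 3.4e-04). SUCLA2, the subunit of the ATP-forming enzyme, had 2.64, 8.28, 7.07 and 7.87 FPKM in livers, against 76, 69.7, 72 and 133 FPKM in muscles (-3.75 ± 0.39, adjusted p = 6.8e-05). The cytoplasmic aconitase (ACO1), which also acts as an iron sensor, had 90.3, 114, 46.2 and 33.2 FPKM in livers, against 6.68, 5.88, 4.62 and 7.62 FPKM in muscles (3.59 ± 0.42). So IDH1 and ACO1, both cytoplasmic, and SUCLG2 made up the liver side of the list. PDHX, the E3-binding protein of the pyruvate dehydrogenase complex, which supplies the cycle with acetyl-CoA, had 5.41, 7.49, 6.46 and 4.74 FPKM in livers, against 34.2, 19.1, 159 and 98.3 FPKM in muscles (-3.33 ± 0.58). Of 5 features of the kinases that inhibit the complex, the 2 of Pdk3 were higher in muscle (-3.03 and -4.13), and those of Pdk2 (0.40 and 0.38) and PDK1 (-0.51) did not pass.

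Of 80 features of the respiratory chain and ATP synthase coded in the nucleus, 2 (2.5%) were higher in liver, 44 (55%) were higher in muscle and 34 did not pass, with a median of -1.51. Complex I had 21 of 27 features higher in muscle, complex III 7 of 12, ATP synthase 12 of 25, complex II 2 of 5 and complex IV 2 of 11. Among all features 13.5% were higher in liver and 12.1% in muscle, and the count of complex IV lay near the muscle share. The features higher in liver were a subunit of complex IV (Cox5b, 1.81) and one of ATP synthase (ATP5J, 1.97, whose second feature was higher in muscle at -2.01). The Rieske protein of complex III (UQCRFS1) had 36.9, 54.3, 54.5 and 42.5 FPKM in livers, against 383, 163, 617 and 649 FPKM in muscles (-3.07 ± 0.41, adjusted p = 3.0e-04). COX6B1 of complex IV had 55, 76.8, 80.4 and 67.4 FPKM in livers, against 284, 301, 712 and 567 FPKM in muscles (-2.63 ± 0.43). The flavoprotein of complex II (sdha) had 4.32, 6.51, 5.62 and 7.78 FPKM in livers, against 11.3, 173, 194 and 116 FPKM in muscles (-3.25 ± 0.65), and female muscle 1 lay far below the other muscles. The sdha difference was -2.38 without female muscle 2. Leaving out each library gave between 32 and 54 features of this list higher in muscle.

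The lists of fat oxidation leaned to different tissues by organelle, the mitochondrial list only weakly. In mitochondrial fatty acid oxidation 1 of 29 features was higher in liver and 6 (20.7%) in muscle, with a median of -0.79. Among all features the shares were 13.5% and 12.1%. In this list 22 features did not pass, and the tissues did not overlap in 2 of the 29, beside 19.3% of all features. The count in muscle was 4 to 11 on leaving out each library, with 10 without female liver 1 and 11 without male muscle 2. Mitochondrial acetyl-CoA acetyltransferase (acat1), a thiolase, had 7.82, 4.74, 3.03 and 7.07 FPKM in livers, against 126, 92.2, 245 and 137 FPKM in muscles (-4.82 ± 0.56). The very long-chain acyl-CoA dehydrogenase (ACADVL) had 2.41, 4.11, 11.1 and 16.1 FPKM in livers, against 9.89, 12.2, 51.3 and 73 FPKM in muscles (-1.94 ± 0.32, adjusted p = 1.0e-03). Male libraries were above female ones in both tissues for ACADVL, so the tissues overlap across the sexes but not within a sex. The feature higher in liver was ACSL1, which activates fatty acids (2.81 ± 0.40), and the 3 features of carnitine palmitoyltransferase did not pass.

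Peroxisomal lipid oxidation leaned to liver, with 17 of 44 features (38.6%) higher in liver and 5 (11.4%) in muscle and a median of 0.68. Among all features the shares were 13.5% and 12.1%. Catalase (cat), which removes the hydrogen peroxide made there, had 196, 471, 327 and 590 FPKM in livers, against 40.3, 34.4, 16.9 and 28.1 FPKM in muscles (3.66 ± 0.48, adjusted p = 2.7e-04). The bifunctional enzyme of the peroxisome (ehhadh) had 13.8, 80.9, 55.6 and 62.9 FPKM in livers, against 5.46, 8.49, 2.8 and 7.84 FPKM in muscles (3.49 ± 0.47). ACOX3, an oxidase of branched acyl-CoA in mammals (2.0), and the thiolases SCP2 (3.11, 2.79 and 1.32) and ACAA1 (1.78) were higher in liver too. The list also holds ACO1, the aconitase above, which is not a peroxisomal enzyme. All 5 features higher in muscle were carnitine O-acetyltransferase (CRAT), which works in mitochondria as well as peroxisomes. The one with the most counts had 16.5, 22.4, 21.2 and 20.2 FPKM in livers, against 46.6, 49.5, 41.2 and 35.4 FPKM in muscles (-1.56 ± 0.40, adjusted p = 0.013), and its call was lost without female liver 2 (adjusted p = 0.053).

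Lipid building leaned to liver. Of 24 features of fatty acid and triglyceride synthesis 10 (41.7%) were higher in liver, 1 was higher in muscle and 13 did not pass, with a median of 1.40. The list median was 1.17 in females alone and 0.21 in males alone. The elongase Elovl1 had 94.3, 196, 219 and 186 FPKM in livers, against 2.19, 3.42, 4.11 and 21 FPKM in muscles (4.96 ± 0.54), and ELOVL4, an elongase of still longer chains, had 6.14, 8.57, 11.1 and 17.3 FPKM in livers, against 0.46, 0.5, 0.53 and 2.56 FPKM in muscles (3.48 ± 0.38). Acetyl-CoA carboxylase, the first committed step, was divided between its isozymes. Form 1 (ACACA) had 2.65, 35.6, 5.35 and 12.4 FPKM in livers, against 1.66, 0.63, 0.44 and 2 FPKM in muscles (3.09 ± 0.66, adjusted p = 0.005), and a second feature of it differed by 3.59 ± 0.66. Female liver 2 held the highest value of both, and the differences without it were 2.14 and 2.68. The remaining form 1 feature did not pass (-0.61 ± 0.34). Form 2 (ACACB), which in mammals sits on mitochondria and curbs fatty acid entry, had 1.82, 2.71, 4.98 and 4.57 FPKM in livers, against 5.38, 3.43, 17.8 and 10.3 FPKM in muscles (-1.26 ± 0.38, adjusted p = 0.03). The tissues overlap for ACACB, its call was lost on leaving out 5 of the 8 libraries, and its second feature did not pass (-1.05 ± 0.42).

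Of 17 features of sterol synthesis and uptake 5 were higher in liver and 1 in muscle. The muscle one was a feature of lathosterol oxidase (Sc5d), at -1.30 ± 0.34 (edgeR adjusted p = 0.015). The liver feature of Sc5d had 13, 14.8, 11.6 and 127 FPKM in livers, against 0.34, 0.88, 0.88 and 0.85 FPKM in muscles (5.39 ± 0.80). Male liver 2 was far above the other livers, and the difference without it was 4.14. Without female muscle 2 the Sc5d difference was 6.04. Scap, a protein of sterol sensing, differed by 2.12 ± 0.55. Male liver 2 was the highest there as well at 43.3 FPKM, against 1.8 to 15.7 FPKM in the other livers and 1.64 to 9.04 FPKM in muscles. The Scap call was lost without female liver 2, male muscle 1 or male muscle 2 (adjusted p between 0.051 and 0.063). The sterol list had a median of 1.37, made of -0.04 in females alone and 2.76 in males alone.

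Bile acid genes and carriers were few but clear. Of 7 features, 5 were higher in liver and 0 in muscle, with a median of 3.50, and 0 had an unadjusted p under 0.05 toward muscle by edgeR or a call there by DESeq2. The organic solute transporter alpha (slc51a), which moves bile acids across the basal membrane of cells, had 362, 223, 322 and 220 FPKM in livers, against 0.77, 1.26, 1.76 and 9.76 FPKM in muscles (6.87 ± 0.66, adjusted p = 4.4e-05, and 7.57 without male muscle 2). SLC27A2, an acyl-CoA synthetase and fatty acid transporter, had 21.8, 37.4, 49.7 and 43.3 FPKM in livers, against 0.45, 0.4, 1.3 and 2.51 FPKM in muscles (5.63 ± 0.44). CYP7B1, the oxysterol 7-alpha-hydroxylase, had 80.1, 100, 203 and 63 FPKM in livers, against 3.96, 4.33, 10.7 and 48.9 FPKM in muscles (3.50 ± 0.59; 2.86 without male liver 1). The tissues did not overlap in any of these 3 features. The bile acid importer SLC10A1 did not pass (-0.08).

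In lipid transport, 9 of 20 features were higher in liver and 3 in muscle, with a median of 1.57. Fatty acid-binding protein 10-A (fabp10a), the basic liver form of fish and birds, had 8934, 1967, 1088 and 2397 FPKM in livers, against 9.33, 8.16, 4.92 and 5.77 FPKM in muscles (5.98 ± 0.67, adjusted p = 1.0e-04). The fitted difference is one of counts, and the mean FPKM stood 8.99 log2 units apart, since the effective length behind them was 228 to 388 bases in livers, against 1509 to 2190 bases in muscles. PLTP, which passes phospholipid between lipoproteins, had 29.8, 236, 191 and 372 FPKM in livers, against 40.7, 12.3, 7.79 and 8.35 FPKM in muscles (4.84 ± 0.55 on counts). In FPKM female liver 1 lay below female muscle 1. The mean FPKM of PLTP stood 3.58 log2 units apart, with effective lengths of 534 to 955 bases in livers, against 77 to 900 bases in muscles. A single gene filled much of the list: 10 features carry the symbol of the lipoprotein receptor LRP1, and 6 were higher in liver (2.32 to 4.84), 3 in muscle (-2.17 to -1.91) and 1 did not pass. The count for the list is therefore not a count of 20 genes.

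Of 29 features of xenobiotic enzymes 15 (51.7%) were higher in liver and 1 in muscle, with a median of 1.43. FMO5, a flavin monooxygenase, had 72.7, 75.7, 283 and 369 FPKM in livers, against 0.83, 1.2, 1.14 and 1.99 FPKM in muscles (6.99 ± 0.58). The cytochrome P450 cyp3a56 had 547, 787, 1028 and 894 FPKM in livers, against 1.06, 2.24, 14.3 and 43.9 FPKM in muscles (6.52 ± 0.66). CES2, a carboxylesterase symbol on a feature matched to a fatty acyl-CoA hydrolase, had 94.8, 104, 234 and 265 FPKM in livers, against 1.07, 1.33, 1.5 and 6.1 FPKM in muscles (6.36 ± 0.51). The tissues were far apart in all 3, and male livers were the higher ones. Other enzymes on the liver side were MGST1 (5.84), UGT2A1 (4.34), AOX1 (4.30 and 4.21) and EPHX1 (3.73). The quinone reductase Nqo1 was the exception, with 48.2, 45, 57.5 and 51.5 FPKM in livers, against 100, 87.5, 119 and 129 FPKM in muscles (-1.08 ± 0.34, adjusted p = 0.034). Its groups do not overlap, but the call was lost on leaving out 6 of the 8 libraries.

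Iron handling, beyond transferrin, was higher in liver in receptor and exporter. The transferrin receptor (TFRC) had 237, 291, 157 and 242 FPKM in livers, against 18.9, 14.1, 22.3 and 35.7 FPKM in muscles (3.63 ± 0.50, adjusted p = 3.4e-04). Ferroportin (slc40a1), the exporter, had 58.4, 281, 52.6 and 112 FPKM in livers, against 2.6, 3.61, 1.9 and 27.7 FPKM in muscles (4.19 ± 0.84), and the difference was 5.36 without male muscle 2 and 3.46 without female liver 2. Protoporphyrinogen oxidase (Ppox), a late step of heme synthesis, was higher in muscle at 6.8, 5.17, 2.01 and 4.47 FPKM in livers, against 20.2, 12.4, 9.5 and 12.6 FPKM in muscles (-1.82 ± 0.36). In all, 6 of 22 heme and iron features (27.3%) were higher in liver and 1 (4.55%) in muscle, beside 13.5% and 12.1% of all features. The list shares tf and ACO1 with other lists and TFRC with the red blood cell markers.

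Amino acid breakdown leaned to liver, with 18 of 55 features (32.7%) higher in liver and 6 (10.9%) in muscle and a median of 0.38. Among all features the shares were 13.5% and 12.1%, so the muscle share was near that of all features. Haao, a late enzyme of tryptophan breakdown, had 241, 291, 256 and 385 FPKM in livers, against 2.96, 4.55, 5.03 and 4.59 FPKM in muscles (6.25 ± 0.51, adjusted p = 2.4e-05). PIPOX, the peroxisomal oxidase of sarcosine and pipecolate, had 55.7, 108, 104 and 131 FPKM in livers, against 5.31, 2.1, 2.49 and 6.94 FPKM in muscles (4.95 ± 0.45), and SARDH, the mitochondrial sarcosine dehydrogenase, had 16, 43.3, 21.6 and 28.8 FPKM in livers, against 1.07, 1.54, 0.54 and 1.96 FPKM in muscles (4.45 ± 0.44). Glycine N-methyltransferase (GNMT, 2.74), which makes sarcosine, the glycine cleavage proteins Amt (2.42) and GCSH (3.43), and the serine hydroxymethyltransferases SHMT1 (2.25) and SHMT2 (2.11) were on the same side. A second GCSH feature was higher in muscle (-1.98). Glutamate dehydrogenase (glud1), which frees ammonia from glutamate, was higher in liver in 3 of its 6 features (1.83 to 2.20).

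The largest muscle excess in the list belonged to bhmt, betaine-homocysteine methyltransferase, which in mammals is an abundant enzyme of liver and kidney. It had 5.94, 4.48, 2.62 and 4.26 FPKM in livers, against 1106, 462, 1930 and 1957 FPKM in muscles (-8.21 ± 0.70, adjusted p = 2.6e-05). A second feature, matched to the same enzyme of another flatfish but without a symbol, had 10.1, 0.45, 1.62 and 0.66 FPKM in livers, against 225, 103, 746 and 256 FPKM in muscles (-6.58 ± 1.10, adjusted p = 0.0012). It belongs to the same assembled cluster and, like the other unsymbolled features, was drawn from those whose tissues did not overlap. Cystathionine gamma-lyase (Cth), which takes the sulphur of homocysteine on to cysteine, was higher in liver (3.54 ± 0.45). HIBADH, of valine breakdown, had its main feature higher in muscle, at 3.76, 5.31, 3.78 and 3.62 FPKM in livers, against 29.6, 24.8, 27.8 and 33.2 FPKM in muscles (-2.75 ± 0.32), and another feature higher in liver at 0.94. Of 7 features of the urea cycle and ammonia list, 2 were higher in each tissue. Uricase (UOX), which breaks down urate, had 212, 422, 343 and 126 FPKM in livers, against 2.71, 1.3, 2.09 and 3.01 FPKM in muscles (5.37 ± 0.50). Argininosuccinate synthase (ass1) had 5.58, 7.67, 6.16 and 6.1 FPKM in livers, against 1.56, 0.7, 2.68 and 1.99 FPKM in muscles (1.87 ± 0.41). NAGS, which makes the activator of carbamoyl phosphate synthesis in mammalian liver, had 2.51, 1.22, 1.39 and 3.29 FPKM in livers, against 21.1, 16.5, 26.6 and 48.1 FPKM in muscles (-3.62 ± 0.43, adjusted p = 1.4e-04), and its second feature differed by -2.49.

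Proteins of the thin filament were, beside Aldoa, among the largest excesses in muscle. Skeletal alpha-actin (acta1) had 23.1, 24.2, 2.65 and 10.3 FPKM in livers, against 74258, 58497, 25098 and 17342 FPKM in muscles (-11.25 ± 1.17, adjusted p = 6.7e-05). TPM3, a tropomyosin symbol on a feature matched to the alpha-1 chain, had 29.2, 20.7, 5.51 and 17 FPKM in livers, against 35515, 35592, 20402 and 7890 FPKM in muscles (-10.85 ± 1.23). Cardiac alpha-actin (ACTC1), which shares most of its sequence with acta1 so that reads may be split between them, had 14.2, 13.4, 7.95 and 11.3 FPKM in livers, against 1768, 13670, 1671 and 1341 FPKM in muscles (-7.83 ± 0.99). Female muscle 2 was the highest for ACTC1, and the difference without it was -6.60. Of 24 sarcomere features 13 (54.2%) were higher in muscle and 3 in liver, with a median of -1.69. Titin (TTN) differed by -3.03, myotilin (MYOT) by -5.50 and the capping protein subunit CAPZA2 by -4.36. An unsymbolled feature nearest to a troponin I of a clam had 38.9, 20.9, 8 and 14.2 FPKM in livers, against 584, 466, 209 and 95.3 FPKM in muscles (-6.65 ± 0.65 on counts), and it was picked after its values were seen. Its mean FPKM, 20.5 in livers and 338 in muscles, lay less far apart than its counts. The effective length behind them was 253 to 293 bases in livers, against 1630 to 1748 bases in muscles. The 3 liver features were Myl3 (1.40 ± 0.40), the kinase MYLK (1.28) and PDLIM1 (1.18 ± 0.38), all small differences. The count in liver was 0 to 3 on leaving out each library, and the tissues overlap in all 3. The Myl3 call was lost without female muscle 1 (adjusted p = 0.087) and without male liver 1 (0.071), and that of PDLIM1 on leaving out 7 of the 8 libraries.

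Outside the sarcomere, muscle held a methyltransferase and 2 chaperone features far above liver. Smyd2b, a lysine methyltransferase, had 0.82, 0.96, 0.56 and 1.76 FPKM in livers, against 134, 92.6, 294 and 342 FPKM in muscles (-8.73 ± 0.61, adjusted p = 2.3e-05). The heat shock cognate feature hsc71, a constitutive HSP70 chaperone, had 19.3, 8.95, 2.55 and 10.5 FPKM in livers, against 1812, 896, 11415 and 5636 FPKM in muscles (-8.50 ± 1.22). Male muscles were above female muscles in both. A feature labelled hspa8 in the same assembled cluster differed by -8.18 ± 1.32, with 42.2, 24.2, 3.2 and 22.6 FPKM in livers, against 3310, 1436, 22078 and 7709 FPKM in muscles. The order of the muscles was the same as for hsc71, and reads may be split between the 2 features. Leaving out single libraries gave between -9.26 (female muscle 2) and -7.68 (male liver 1) for hsc71 and between -9.06 (female muscle 2) and -7.21 (male muscle 1) for hspa8.

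Energy transfer and its control were higher in muscle in the adenylate enzymes and divided in the kinase that senses AMP. Of 30 features of phosphagen and adenylate energy transfer 5 were higher in liver and 13 (43.3%) in muscle, with a median of -0.25. Adenylate kinase 1 (ak1), which regenerates ATP from ADP in the cytoplasm, had 29.8, 7.62, 3.7 and 21.6 FPKM in livers, against 9294, 7720, 2059 and 1972 FPKM in muscles (-8.04 ± 0.96, adjusted p = 1.4e-04, and -8.83 without male liver 2). Mitochondrial AK4 went the other way, with 52.9, 53.4, 35.7 and 33.9 FPKM in livers, against 6.75, 9.37, 9.62 and 13.3 FPKM in muscles (2.33 ± 0.35), and AK3 differed by -1.51 ± 0.36. Adenylosuccinate lyase (ADSL), of the purine nucleotide cycle, had 9.76, 28.3, 27.9 and 26.8 FPKM in livers, against 535, 370, 686 and 488 FPKM in muscles (-4.53 ± 0.51). The synthetase before it was divided within 1 symbol, of whose 3 features 1 was higher in each tissue. The feature labelled Adss, isozyme 2, was higher in liver (1.6 ± 0.34) and a feature labelled adss was higher in muscle (-2.63). Whether these are separate isozymes was not tested. Creatine kinase was matched by 1 feature, of the brain type (CKB), which did not pass (-0.59).

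In AMP-activated protein kinase, 3 of 9 features were higher in liver and 1 in muscle, and the beta subunits that tether the complex changed places. PRKAB1 had 102, 120, 63 and 69.7 FPKM in livers, against 2.45, 2.36, 2.36 and 9.52 FPKM in muscles (5.47 ± 0.66, adjusted p = 1.6e-04). PRKAB2 had 2.43, 2.29, 1.56 and 3.49 FPKM in livers, against 39.7, 27.8, 32.8 and 40.9 FPKM in muscles (-3.95 ± 0.36, adjusted p = 3.2e-05). The 4 libraries of each tissue sat close together in PRKAB2 and apart from the other tissue in both. The catalytic PRKAA1 was higher in liver (1.53 ± 0.36), and so was the gamma subunit Prkag1 (1.17 ± 0.36, adjusted p = 0.031), whose call was lost on leaving out 5 of the 8 libraries. The remaining 5 features, 4 of Prkag2 and 1 of Prkab1, had differences between 0.05 and 0.69 and did not pass.

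**Figure D3:**
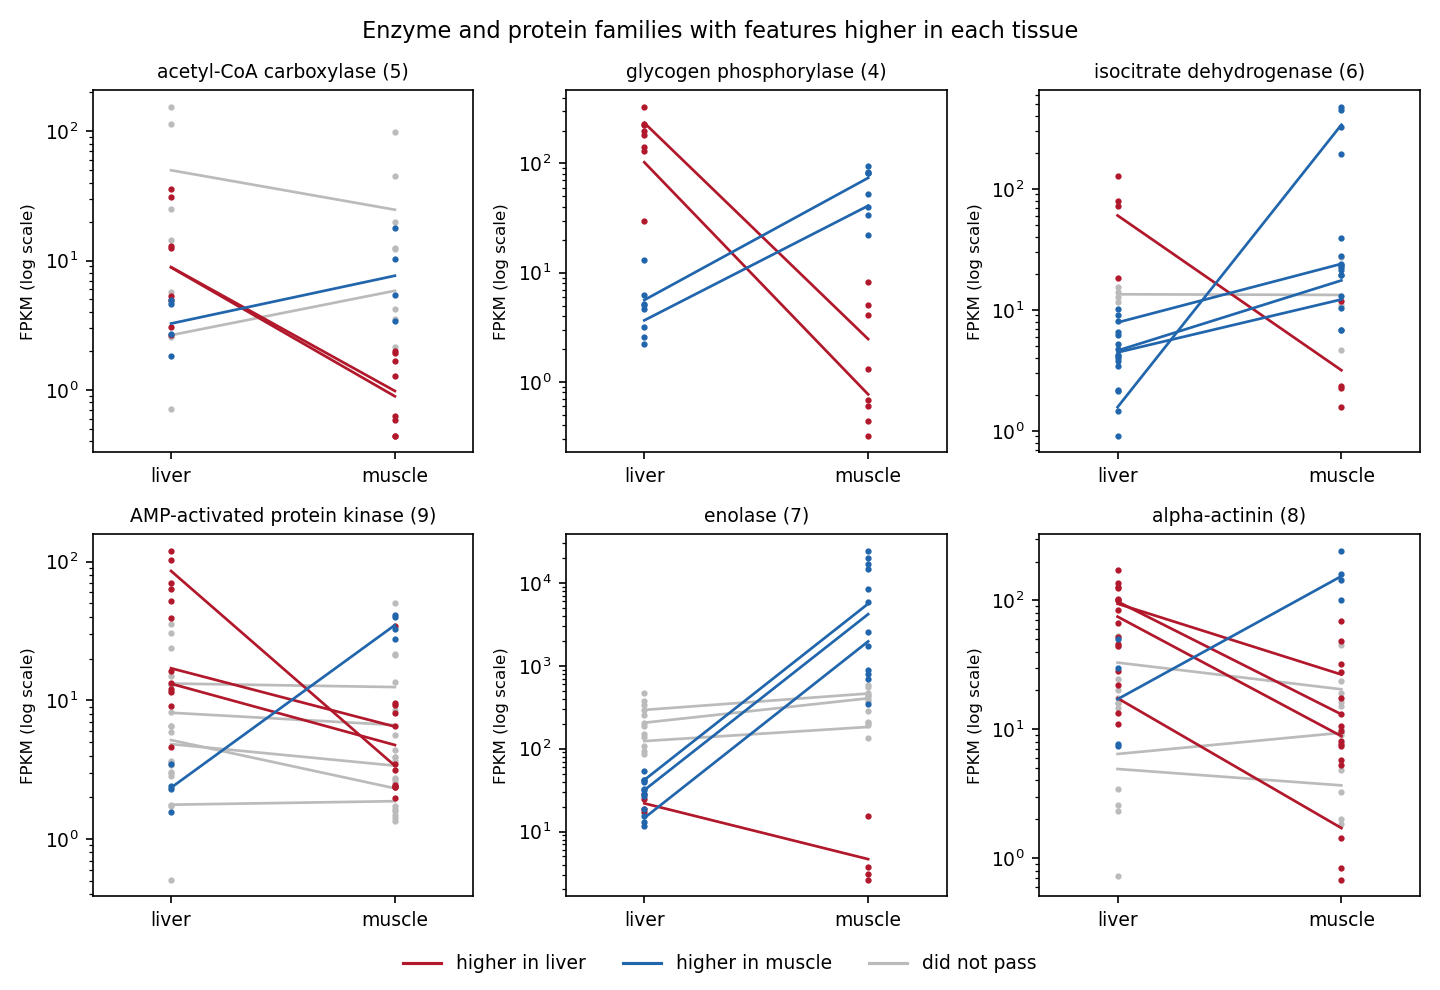
FPKM (vertical, log scale) in liver at left and muscle at right for the features of 6 families with calls in both directions; points are libraries and lines join the geometric means. In glycogen phosphorylase and isocitrate dehydrogenase lines cross, as between IDH1 (18.5 to 127 FPKM in livers, 1.59 to 11.9 FPKM in muscles) and IDH2 (0.91 to 2.16 FPKM in livers, 193 to 476 FPKM in muscles).

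Of 28 family lists with at least 2 matched features, 11 held features higher in each tissue, phosphoglycerate mutase with pgam5 among them. That count has no share over all features to stand beside, and the families were chosen with earlier results of these data known. Some rest on single features, as the calcium pumps with 1 of 6 features on each side. Muscle calcium handling had 5 of 29 features (17.2%) higher in liver and 6 (20.7%) in muscle, near the 13.5% and 12.1% of all features. The muscle chloride channel (Clcn1), which stabilises the resting membrane, had 1.67, 0.92, 1.39 and 1.06 FPKM in livers, against 56, 37.6, 24.2 and 34 FPKM in muscles (-4.34 ± 0.46, adjusted p = 8.1e-05). Triadin (TRDN), of the calcium release unit, had 4.95, 6.24, 4.04 and 4.49 FPKM in livers, against 81.6, 33.4, 8.41 and 44.1 FPKM in muscles (-2.55 ± 0.42). The fast-muscle calcium pump (Atp2a1) had 0.52, 3.09, 8.22 and 8.45 FPKM in livers, against 1.64, 160, 34.8 and 82.4 FPKM in muscles (-5.59 ± 1.36, adjusted p = 0.01), so female muscle 1 lay within the livers, and the difference without female muscle 2 was -2.92. It was -4.89 without female liver 1 and -6.21 without male muscle 1. Its relative ATP2A2 had 16.4, 5.19, 5.66 and 9.39 FPKM in livers, against 1.57, 1.98, 3.27 and 3.34 FPKM in muscles in the called feature (1.79 ± 0.36), and 4 further ATP2A2 features did not pass. CAMK2D, a calmodulin-dependent kinase, was higher in liver with 173, 220, 56.2 and 80.6 FPKM in livers, against 5.38, 4.43, 2.98 and 13.5 FPKM in muscles (4.81 ± 0.59), and so was ASPH (1.95 ± 0.47). Without female liver 2 the counts were 3 and 3, and 3 features were higher in muscle without female muscle 2.

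Alpha-actinin and myosin heavy chain held more liver than muscle features, while of 17 actin features 0 were higher in liver and 5 in muscle. The actins that did not pass included 1 actb feature (0.04) and the ACTG1 features at -0.01 and -0.76, of the widely expressed cytoplasmic forms, and 1 actbb feature was higher in muscle (-1.41). Alpha-actinin, which crosslinks actin, had 4 of 8 features higher in liver, 3 of them ACTN4 and 1 ACTN1, and 1 ACTN1 feature higher in muscle. The main ACTN4 feature had 52, 173, 100 and 102 FPKM in livers, against 7.63, 8.04, 9.76 and 48.3 FPKM in muscles (3.03 ± 0.43), and the muscle feature of ACTN1 had 7.44, 7.64, 50.1 and 29.9 FPKM in livers, against 159, 144, 243 and 101 FPKM in muscles (-2.71 ± 0.63; -3.35 without male muscle 2). Of 12 myosin heavy chain features, all of the non-muscle or smooth muscle genes MYH9, MYH10 and MYH11, 8 were higher in liver and 1, of MYH10, in muscle (-3.77). The tissues overlap in all 12, and 5 were higher in liver without female muscle 1 or without male liver 2. The MYH10 muscle feature had 5, 29.17, 6 and 18.37 counts in livers. Its effective length, counts divided by FPKM, was 17 to 1125 bases in livers, against 158 to 556 bases in muscles. Its mean FPKM differed by only -0.70 log2 units. The longest feature, of MYH9, had 62.9, 127, 93 and 150 FPKM in livers, against 20.5, 29.5, 23.7 and 87.4 FPKM in muscles (1.14 ± 0.36, adjusted p = 0.038), with male muscle 2 above female liver 1, and its call was lost on leaving out 6 of the 8 libraries. One Myh9 feature shows how the scale can decide a direction. Its counts gave 1.75 ± 0.43 (adjusted p = 0.011), and its FPKM were 30.9, 61.3, 49.5 and 78.5 in livers, against 52.2, 35.9, 164 and 107 in muscles. Dividing counts by FPKM gave an effective length of 777 to 1247 bases in livers, against 98 to 516 bases in muscles, so transcripts of different length stood behind its counts in the 2 tissues. Mean effective lengths were over 2 times apart in 6 of 136 named called features: Myh9, fabp10a, Pkm, UOX, Atp2a1 and the lysine methyltransferase smyd2b.

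Protein breakdown, a field studied for muscle wasting, showed few differences in the fit of both sexes together. In that fit 3 of 46 features were higher in liver and 4 in muscle, below the share among all features in both directions. Fbxo30, a ubiquitin ligase subunit, had 0.94, 0.55, 1.86 and 2.16 FPKM in livers, against 2.39, 4.22, 26 and 66.1 FPKM in muscles (-3.32 ± 0.46, adjusted p = 3.6e-04). BNIP3L, a receptor for the removal of mitochondria, had 12.5, 19.4, 22.2 and 36.2 FPKM in livers, against 51.1, 70.2, 225 and 442 FPKM in muscles (-2.73 ± 0.40). Male muscles were above female muscles in both. Klf15, a transcription factor, was higher in liver (3.34 ± 0.53; 2.69 without male liver 1), and the calls of SQSTM1 (1.22 ± 0.39) and of Capn2 (-1.37 ± 0.45) were lost on leaving out 4 and 6 of the 8 libraries. The count in muscle was 8 without female liver 1, 2 without male liver 2 and 2 without male muscle 2. F-box only protein 32 (FBXO32), a muscle marker given here after its values were seen, did not pass over both sexes (-2.29 ± 1.16). It had 7.38, 4.18, 14.9 and 10.2 FPKM in livers, against 7.31, 3.3, 268 and 564 FPKM in muscles. The difference was 0.26 in females alone and -4.82 in males alone (edgeR interaction, unadjusted p = 2.2e-04, adjusted p = 0.17).

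Markers of other cell types moved with the tissues in part. Of 28 connective tissue and vessel features 14 (50%) were higher in muscle and 2 in liver, and their sum was 973, 1101, 983 and 947 FPKM in livers, against 1320, 2434, 1089 and 4620 FPKM in muscles. The features higher in muscle were collagens, among them COL6A3 (-3.84), and sparc (-2.78). Most of these 14 features carry the symbol COL1A1 or col1a2, so they are not 14 genes. Among the 12 that did not pass were the collagens COL3A1 (-0.55) and Col6a1 (-0.52) and the features of decorin. Higher in liver were fibronectin (FN1, 3.99), which is also a plasma protein made by hepatocytes, and FBN1 (1.92). Red blood cell markers summed to 10292, 3220, 419 and 559 FPKM in livers, against 3022, 8234, 288 and 948 FPKM in muscles, so female libraries were higher in both tissues. Of those 12 features 1 was higher in liver, TFRC, and 0 in muscle by edgeR and DESeq2, with 0 at an unadjusted p under 0.05. Leukocyte markers summed to 1050, 7765, 1964 and 968 FPKM in livers, against 259, 259, 349 and 1779 FPKM in muscles, with 1 feature called in each direction. Most of the 7765 was the feature with the symbol LCP1, which the deposited match names a digestive cysteine proteinase: 185, 7530, 1698 and 189 FPKM in livers, against 1.31, 1.96, 0.42 and 19.1 FPKM in muscles (8.91 ± 1.75). Its difference was 6.85 without female liver 2, 8.18 without female muscle 1, 9.80 without male liver 2 and 10.82 without male muscle 2. The single exocrine pancreas feature, chymotrypsin-like CTRL, had 442, 254, 3.69 and 44.2 FPKM in livers, against 7.37, 4.79, 23.4 and 22.1 FPKM in muscles and did not pass (3.36 ± 1.32, adjusted p = 0.084); DESeq2 called it. The neuron and glia sum of 791 to 17165 FPKM in muscles was nearly all ENO2, described above. How far other cell types set the differences given here was not tested.

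**Figure D4:**
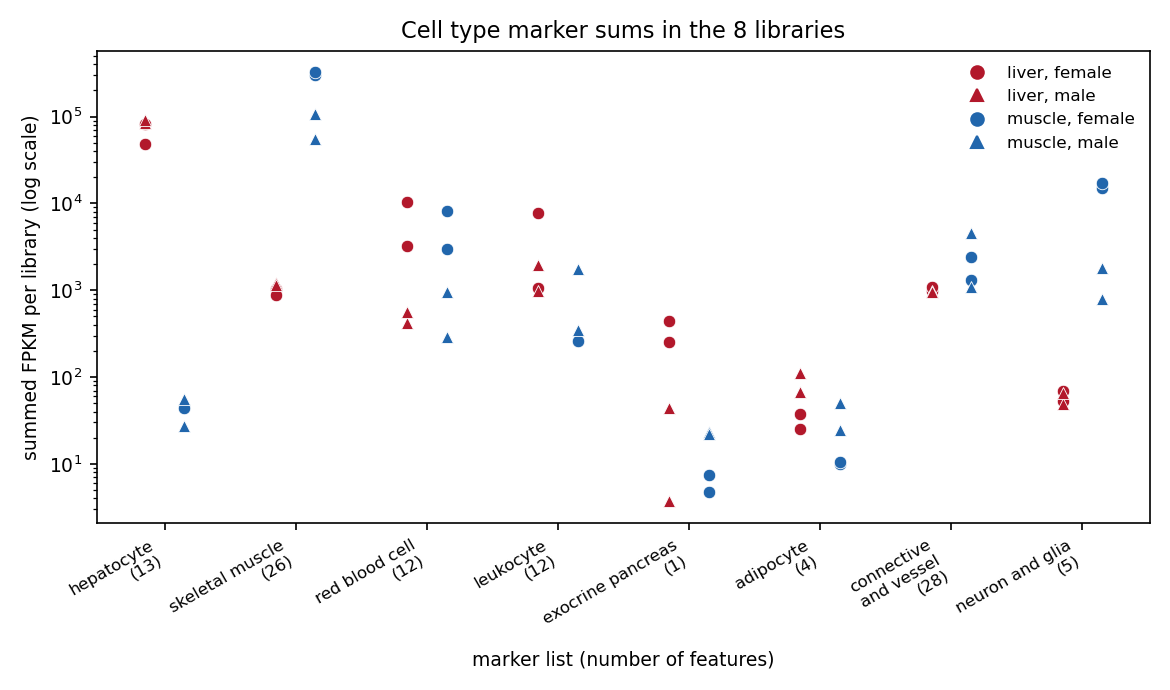
Summed FPKM per library (vertical, log scale) of 8 marker lists, liver at left and muscle at right within each list. Hepatocyte and skeletal muscle sums separate the tissues, red blood cell sums are higher in female than in male libraries of both tissues, and leukocyte, pancreas and adipocyte sums overlap.

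Some symbols were carried by several features that went opposite ways, a pattern looked for after the values were seen. Of 401 symbols with at least 2 called features, 178 had all of them higher in liver, 173 all higher in muscle and 50 (12.5%) some in each direction, and in 30 of these the features lay at least 4 log2 units apart. In 8 of the 50, called features of 1 assembled cluster went both ways. The widest was cytoplasmic malate dehydrogenase (mdh1), of the malate-aspartate shuttle. One feature had 1.9, 4.88, 4.32 and 8.89 FPKM in livers, against 536, 377, 554 and 597 FPKM in muscles (-6.79 ± 0.46, adjusted p = 2.3e-05). Another had 164, 384, 291 and 172 FPKM in livers, against 6.73, 5.89, 9.67 and 40.7 FPKM in muscles (4.18 ± 0.48, adjusted p = 1.1e-04), and 2 more were higher in liver at 4.85 and 5.42. The tissues did not overlap in any of the 4 mdh1 features.

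Elongation factor 1-alpha (eef1a), which brings aminoacyl-tRNA to the ribosome, was divided in the same manner. Its muscle feature had 51.6, 21.8, 7.41 and 3.19 FPKM in livers, against 3983, 2134, 5189 and 4191 FPKM in muscles (-8.03 ± 1.06, adjusted p = 2.7e-04). Its liver feature had 4054, 4006, 5926 and 2783 FPKM in livers, against 282, 275, 304 and 629 FPKM in muscles (3.69 ± 0.54, adjusted p = 5.3e-04), and 3 more did not pass. Heat shock cognate 70 (hsc71) had 3 features higher in liver (2.48, 2.48 and 2.75) beside the muscle feature at -8.50. Liver and muscle FPKM overlap in the feature at 2.75 and in the 557-base feature at 2.48. That 557-base feature had 3 to 28 counts in muscles and effective lengths of only 4 to 16 bases over the libraries. The mitochondrial transhydrogenase (NNT), which makes NADPH, had 3 features higher in muscle (-4.86 to -4.53) and 2 higher in liver (1.74 and 2.33). Whether such features are gene duplicates, alleles or fragments cannot be read from the table.

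Females alone gave 2315 called features (14.5%) and males alone 2680 (16.6%), with 2 libraries against 2 in each. Of the features called in both, 1323 had the same direction and 7 the opposite. No feature passed the edgeR test of the difference between the sexes, while 1673 (10.3%) had an unadjusted p under 0.05. DESeq2 called 220 features, limma called 0, and edgeR with all 16 libraries called 73.

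Vitellogenin (vtg1), the precursor of egg yolk, which female fish make in the liver, had a wide gap between the sexes. It had 24712, 10369, 168 and 120 FPKM in livers, against 30.7, 62.6, 55.6 and 97 FPKM in muscles. Female livers were far above every other library, while male livers were above muscles by a small margin only. The difference was 9.53 in females alone and 2.13 in males alone, and the test of the interaction gave an unadjusted p of 6.8e-05 and an adjusted p of 0.14. Over both sexes the difference was 5.87 ± 1.82 (adjusted p = 0.034), and this call was lost without female liver 2 (0.056) and without female muscle 1 or 2 (0.11 each). The fitted difference lay between 3.71 (without female muscle 1) and 8.01 (without male liver 2).

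**Figure D5:**
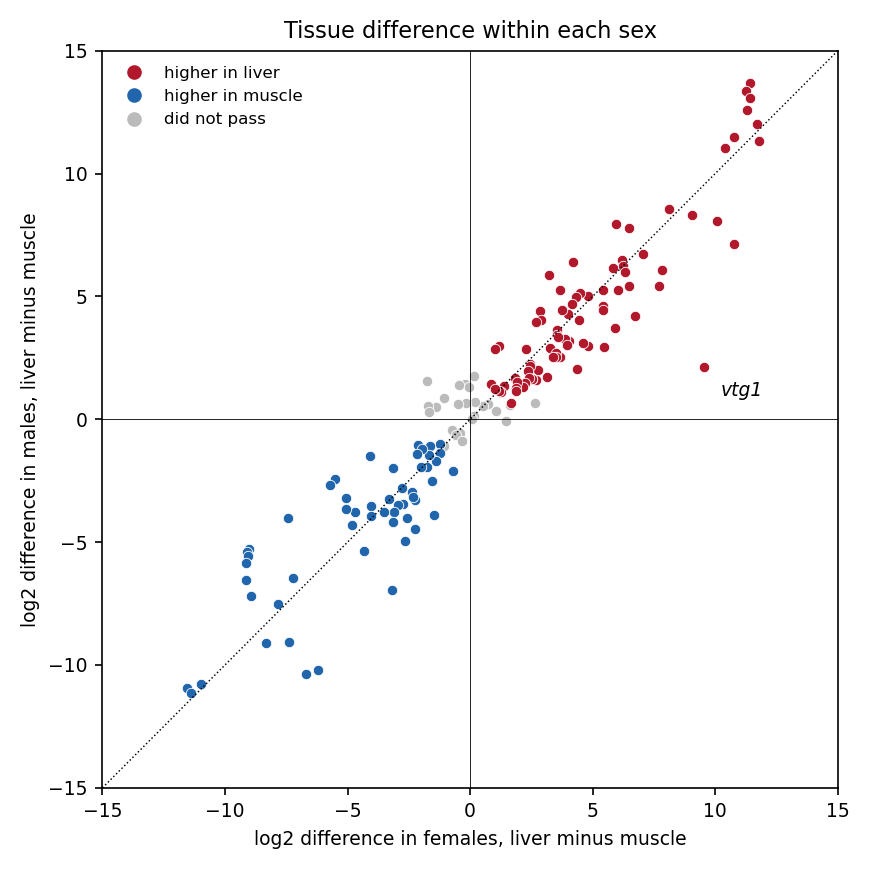
Log2 difference, liver minus muscle, in males alone (vertical) against females alone (horizontal) for the 161 named features, with the line of equality dotted. Called features have the same sign in both sexes, which is favoured by calling them in a fit of both sexes together. The point of vtg1 (9.53 in females, 2.13 in males) lies far from the line.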

How the data were processed

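The authors deposited 1 table of 16270 assembled features with an expected count and an FPKM per library, per the file headers. Expected counts were estimated with RSEM, per the submitters' processing notes. Its version, the assembler's settings and the strand setting are, for these data, not given in the sources read. The table holds 16 further value columns of samples not listed here, which were not used. The lowest FPKM listed in the 8 libraries was 0.31, so genes silent in any library lie outside it.

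Expected counts were rounded to whole numbers and fitted with edgeR 4.0.16 (R 4.3.3): TMM scaling, sex and tissue as terms, the quasi-likelihood F test with 5 residual degrees of freedom, and Benjamini-Hochberg adjustment over the 16245 features with at least 1 FPKM in at least 2 of the 8 libraries. The interaction of tissue and sex had 4. The median biological coefficient of variation was 0.42. Standard errors are the log2 difference divided by the root of F. The procedure was tested on simulated data.

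Features were named by rule: the 10 largest non-overlapping differences in each direction, the 3 largest per pathway list and direction, and all members of families with calls in both directions, 161 in all. Members and lists were chosen with earlier results of these data known. Other members given with values, such as F9 and MGST1, were chosen after their values were seen. Same-numbered liver and muscle libraries deviated together in males (correlation 0.459) but not in females (-0.006). With 2 libraries per sex and tissue, these values cannot decide whether equal numbers share a fish. As the labels do not say so either, numbers were not taken as pairs. Alternatives were other scalings and filters, all 16 libraries, the sexes alone, a replicate block, DESeq2 1.42.0, limma 3.58.1 on log2(FPKM + 1) of the deposited FPKM, and leaving out each library. Some named features are not reported here.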

Additional observations from a re-analysis of the deposited data

Results flagged for a closer look

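One of the 161 named features moved in opposite directions in the sexes with no overlap between tissues within a sex: the gamma-2 subunit of AMP-activated protein kinase (Prkag2), in its shortest feature but one. It had 0.51 and 1.75 FPKM in female livers, against 2.59 and 2.39 FPKM in female muscles. It had 2.98 and 3.68 FPKM in male livers, against 1.34 and 1.49 FPKM in male muscles. The difference of the tissue difference, females minus males, was -3.26 (edgeR, unadjusted p = 0.0061), which did not pass adjustment over all features. The levels are low, with 2 to 20 counts per library, and the other 3 Prkag2 features were not called. How many of all features have such a pattern was not counted, so the 1 of 161 has no share to stand beside. By the same edgeR test 10.3% of all features had an unadjusted p under 0.05.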

How the results depend on the processing

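The count of 4153 called features lay between 2997 and 4837 on leaving out each library. Features higher in muscle numbered between 1290 (without male liver 1) and 2388 (without female liver 1) in the same fits, and 3010 with all 16 libraries in the fit. Females alone gave 2315 calls (1337 higher in liver, 978 in muscle) and males alone 2680 (1266 higher in liver). The interaction of tissue and sex had 0 calls by edgeR, 73 with all 16 libraries, 220 by DESeq2, 11 with the replicate block and 0 to 1 on leaving out each library. The cause of these shifts was not tested, beyond the fewer libraries in some fits.

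With the replicate block, 4240 features were called (2244 higher in liver, 1996 in muscle), and 1 of 136 named calls was lost, that of PDLIM1. Of those 136 calls 136 held with DESeq2, 131 without TMM on listed totals, 129 on recovered totals and 122 with limma, where 13 were lost and Myh9 reversed to -0.53 (-0.54 with a pseudocount of 0.1). Leaving out each library lost 2 to 12, and 121 held whichever library was left out. The median of all features lay between -0.02 and 0.05 over the scalings and fits. Levels near 0.31 FPKM rest on few counts.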

Other observations

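Further unsymbolled features, chosen after their values were seen and only where the tissues did not overlap, had large differences. One nearest to inter-alpha-trypsin inhibitor heavy chain 4, a plasma protein, differed by 10.62, and a second fibrinogen beta chain feature by 11.56. On the muscle side, a feature nearest to dystroglycan, which links the muscle cell's cytoskeleton to its surroundings, differed by -6.46, and one matched to the ferritin heavy subunit, which stores iron, by -5.32.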
